A study of Mus musculus with 6 samples.

Results

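The mitochondrial carriers of the SLC25 family were taken as every row of the count table whose symbol starts with SLC25A, in bulk RNA-seq of pituitaries from male mice. That rule found 48 of 16736 rows. They carry 46 symbols, because some stand on 2 rows. The gene behind the weaker row of a symbol, which has 1 to 8 counts for SLC25A5, is uncertain, and such rows are left aside from here on. Libraries came from mice labelled RD (n = 3) and mice labelled HFD (n = 3), all taken 4 h into feeding after a fast of 16 h. The labels do not spell out RD and HFD and give no age, strain or diet duration. Whether the 3 samples of a group are separate animals is not said. The p-values therefore reflect only how far these samples spread, which may be technical. The series title sets the study in obesity.

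Most SLC25 carriers are small proteins of the inner mitochondrial membrane, built from tandem repeats of paired membrane helices, that open in turn to the intermembrane space and to the matrix. Each of these moves a few related solutes (nucleotides, phosphate, keto acids, amino acids, acylcarnitines, cofactors or iron) and so connects cytosolic and mitochondrial metabolism. In secretory cells the ADP/ATP carriers among them export the ATP on which hormone synthesis and release depend.

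Totals over the listed rows ran from 14185372 to 18111345 counts per library. The 7 hormone genes used as markers of the anterior pituitary were all present and together took 85060 to 95540 CPM in the RD libraries and 58320 to 65150 CPM in the HFD libraries. Growth hormone made up most of that sum, and the 7 did not move together. By edgeR GH1, PRL, LHB and FSHB were called lower, TSHB (log2 change 1.04) and CGA (0.37) were called higher, and POMC (0.58, adjusted p = 0.233) was not called. Levels in CPM are counts scaled to library size with TMM factors, and RPKM divides them by exon length in kilobases. Markers of muscle summed to 0.624 to 1.90 CPM, those of liver to 1.27 to 7.77 CPM and those of germ cells to at most 0.676 CPM in any library. In HFD replicate 3 the 4 oligodendrocyte markers summed to 195.7 CPM, against 59.6 to 78.1 CPM in the others. The 3 erythroid markers with a row ran from 64.4 to 105.5 CPM in RD and from 54.1 to 124 CPM in HFD, and 4 endothelial markers from 201 to 219.9 CPM in RD and from 214 to 236 CPM in HFD. The 4 myeloid markers summed to 41.9 to 53.7 CPM in RD and 44.1 to 53.9 CPM in HFD, and the 4 of the posterior lobe to 67.4 to 122 CPM in RD and 44.5 to 93.5 CPM in HFD. Of the 3 brown fat markers, UCP1 and ADIPOQ had 0 counts in 5 libraries and the third, CIDEA, stood at 49.4 CPM in RD replicate 3 against 15.4 to 18.7 CPM in the others. In bulk tissue fewer cells of a type and less RNA per cell cannot be told apart.

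Among the genes with the SLC25A prefix, carriers of ADP, ATP and phosphate were the most abundant. The 3 tested genes of that kind and SLC25A31 made up 27.4% to 31.7% of the summed RPKM of the family in RD, and 25.5% to 28.3% in HFD. SLC25A4, an ADP/ATP carrier known from heart and muscle, stood at 50.6 ± 0.887 RPKM in RD and 55.7 ± 4.28 RPKM in HFD (SD, n = 3 each). SLC25A3, which brings in phosphate for ATP synthesis, stood at 53.5 ± 10.9 RPKM in RD and 46.4 ± 1.32 RPKM in HFD. SLC25A5, the ADP/ATP carrier of many proliferating and secretory tissues, stood at 47.5 ± 3.78 RPKM in RD and 39 ± 1.97 RPKM in HFD. The spread of SLC25A4 and SLC25A3 covers the difference between them, so their order is not resolved. With the longest transcript as length instead, SLC25A3 came first, at 68.6 against 65.0 RPKM.

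Next in level, as means over the 6 libraries, came SLC25A27 (UCP4, a neuronal member of the uncoupling-protein branch) at 31.7 RPKM and SLC25A39 (a glutathione carrier) at 26.9 RPKM. SLC25A11 (the oxoglutarate/malate carrier) followed at 26.1 RPKM, then SLC25A51 (the NAD carrier) at 23.5 RPKM and SLC25A44 (the carrier of branched-chain amino acids) at 17 RPKM. With longest transcripts SLC25A44 fell to rank 13, and the other 7 genes stayed the highest. At the other end, SLC25A21, an oxodicarboxylate carrier, had a mean of 0.141 RPKM. SLC25A21, SLC25A31 (the ADP/ATP carrier of germ cells) and SLC25A41 fell below the filter on low counts and were not tested. Summed over the 46 genes, levels were 515, 522 and 535 RPKM in the RD libraries and 533, 521 and 517 RPKM in the HFD libraries, and the groups overlapped.

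**Figure D1:**
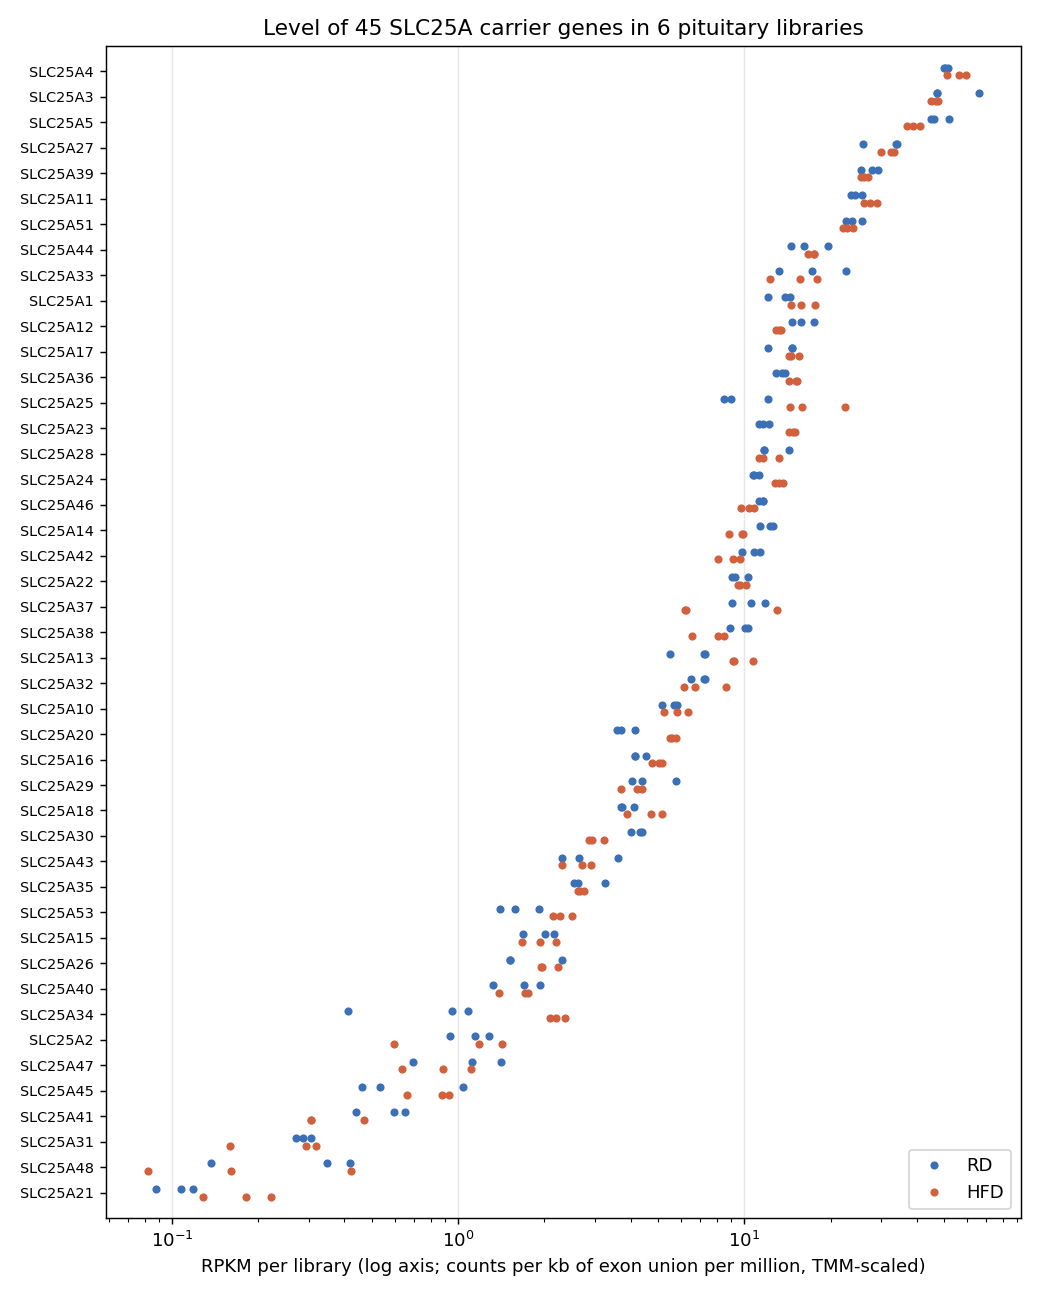
RPKM of 45 SLC25A genes (log axis) in the 3 RD libraries (blue) and the 3 HFD libraries (orange), one point per library, ordered by the mean. SLC25A4, SLC25A3 and SLC25A5 lead, and the lowest genes, such as SLC25A21, lie under 1 RPKM.

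Of the 43 carriers tested, 5 were called higher and 2 lower in HFD by edgeR's quasi-likelihood test at an adjusted p of 0.05, and 36 did not pass. The 5 were SLC25A34, SLC25A25, SLC25A20, SLC25A13 and SLC25A23, and the 2 were SLC25A30 and SLC25A12. The called share of the family was 16.3%, against 10.5% of all 13873 rows tested. In the higher direction 5.87% of all rows were called and in the lower direction 4.61%. The median log2 change of the family was -0.015, beside -0.002 over all rows. The median size of the change, sign aside, was 0.213, beside 0.165. All 3 HFD libraries lay above all RD libraries for 11 carriers and below them for 8, together 44.2% of the family. Over all rows these shares were 16.9%, 15.6% and, together, 32.5%. The calls rest on few libraries. Without RD replicate 1, 7 of 44 carriers tested were called, beside 10.9% of all rows, and without RD replicate 3, 8 of 44, beside 10.1%. Without RD replicate 2, 3 of 45 carriers tested were called, beside 6.35% of all rows. Without HFD replicate 1, 4 of 46 were called (SLC25A37 among them), beside 4.99%, and without HFD replicate 2, 1 of 45, beside 3.5%. Without HFD replicate 3 edgeR called 0 of 44 members, and the called share of all rows was 3.08%. In that fit 14 members had an unadjusted p under 0.05, and the count over all rows was not taken. In the main fit 16 of the 43 had such a p, as did 3679 of all 13873 rows. In the fits that called fewer carriers than the main fit, the counts of calls over all rows fell too.

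**Figure D2:**
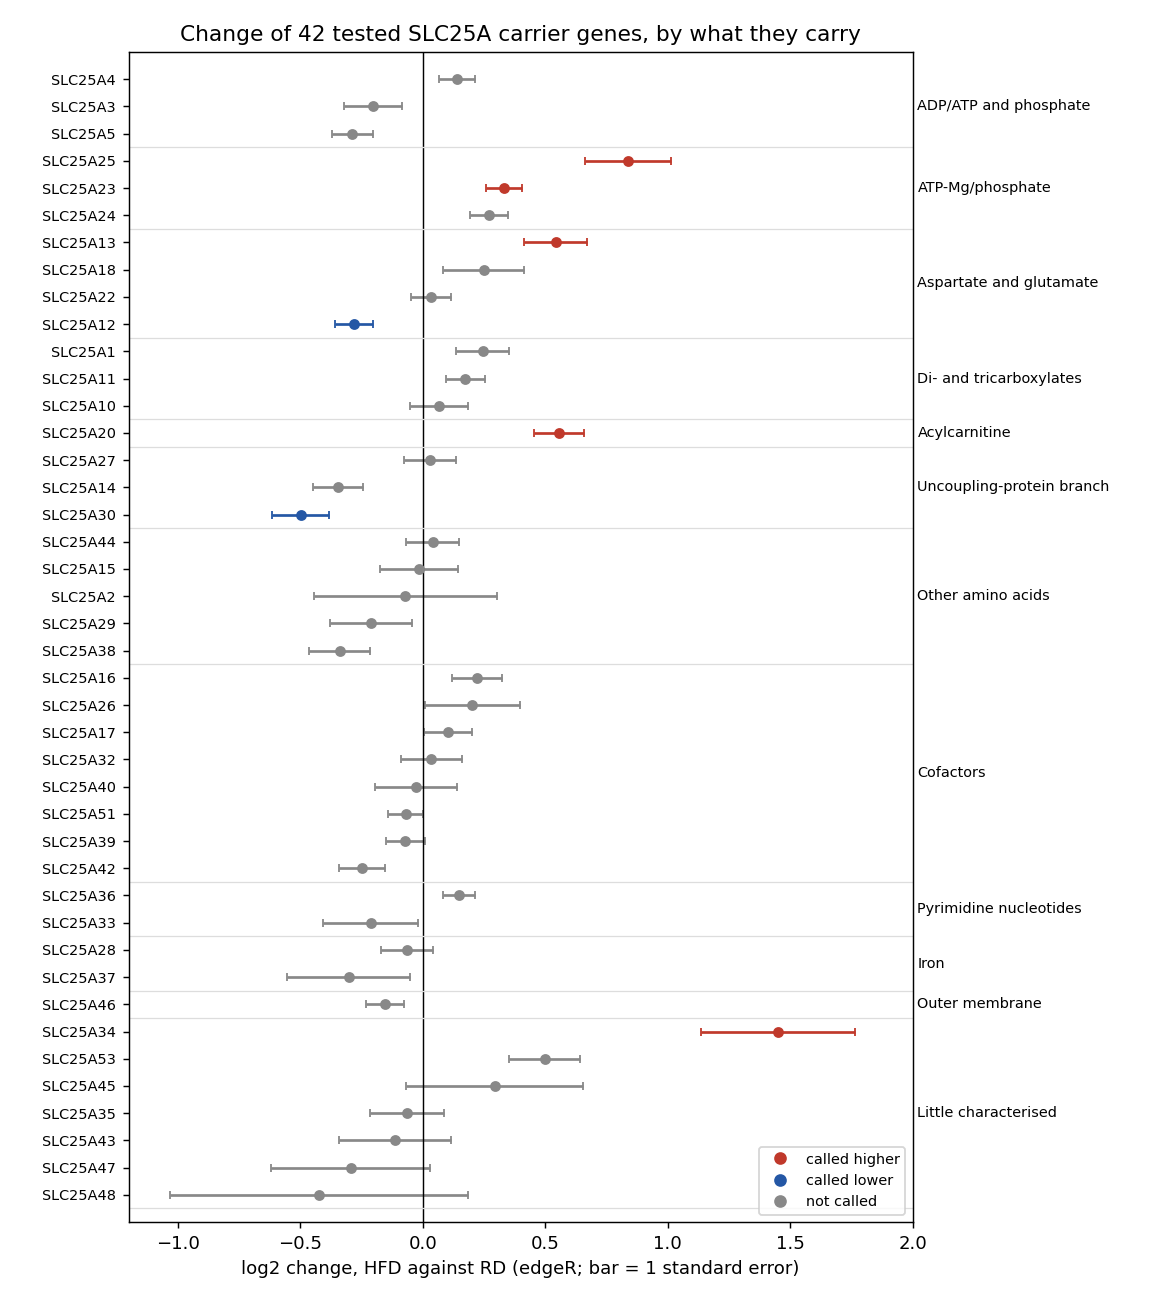
log2 change (HFD against RD) of 42 tested SLC25A genes with 1 standard error, grouped by what they carry. Red marks the 5 called higher, blue the 2 called lower and grey the 35 not called; SLC25A34 lies farthest out, at 1.45.

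The aspartate/glutamate carriers moved in opposite directions. SLC25A12 (aralar, AGC1) and SLC25A13 (citrin, AGC2) do the same work: they take glutamate into the matrix in exchange for aspartate, a step of the malate-aspartate shuttle that brings the electrons of cytosolic NADH to the mitochondria. Aralar is known as the form of brain and muscle, citrin as that of liver. SLC25A12 (chromosome 2 of mm10, 71271063 to 71367749, minus strand) stood at 116, 128 and 108 CPM in RD replicates 1, 2 and 3 and at 97.1, 94.3 and 98.2 CPM in the HFD replicates. All HFD libraries were below all RD libraries, with a log2 change of -0.28 ± 0.08 (SE) and an adjusted p of 0.0476 by edgeR. SLC25A13 (chromosome 6, 6041218 to 6217173, minus strand) stood at 27.4, 27.7 and 20.9 CPM in RD and at 35.0, 34.7 and 40.8 CPM in HFD. Here every HFD library was above every RD library, the log2 change being 0.54 ± 0.13 (edgeR adjusted p = 0.0266).

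The summed level of the pair overlapped between the groups, and the share of each gene in it did not. The separation of the shares follows from that of the 2 genes in opposite directions and is no further result. SLC25A12 and SLC25A13 together gave 22.6 ± 2.27 RPKM in RD and 22.9 ± 1.12 RPKM in HFD (SD, n = 3 each). Citrin made up 31.4%, 29.5% and 27.2% of that sum in the RD libraries and 41.1%, 41.6% and 44.6% in the HFD libraries, so aralar remained the larger part in every library. Scaled by the longest transcript, the mean share of SLC25A13 was 30.4% in RD and 43.7% in HFD. The call of SLC25A12 is the weaker. It was made without RD replicate 3 but lost without any other library (edgeR adjusted p from 0.0679 to 0.165), with upper-quartile factors (0.0774), with library size only (0.121) and by limma-voom (0.0535). That of SLC25A13 was lost without HFD replicate 1 (0.0621), HFD replicate 2 (0.0732) or HFD replicate 3 (0.129).

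The glutamate carriers of the same group, SLC25A22 and SLC25A18, had log2 changes of 0.03 ± 0.08 and 0.25 ± 0.17 and were not called. Of the 6 enzymes of the NADH shuttles, edgeR called 0, with 1 at an unadjusted p under 0.05 (median log2 change -0.146). Over all 13873 rows it called 10.5%, and 3679 had an unadjusted p under 0.05. DESeq2 and limma-voom also called 0 of the 6. The aspartate aminotransferases GOT1 and GOT2, which make and use the aspartate that these carriers move, had log2 changes of -0.42 ± 0.17 and -0.12 ± 0.07, and the malate dehydrogenases MDH1 and MDH2 of -0.17 ± 0.08 and -0.09 ± 0.07.

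The 250 bases before the RefSeq start sites of this pair are shown because its genes moved apart. Both lie on the minus strand of GRCm38.p6, the build of mm10, at chr2:71367756-71368005 for SLC25A12 and chr6:6217174-6217423 for SLC25A13, and are printed 5′ to 3′ in the direction of the gene. Capitals mark matches to the motifs described further on. SLC25A12 has none, and SLC25A13 has a CACGTG and a CCAAT.
SLC25A12: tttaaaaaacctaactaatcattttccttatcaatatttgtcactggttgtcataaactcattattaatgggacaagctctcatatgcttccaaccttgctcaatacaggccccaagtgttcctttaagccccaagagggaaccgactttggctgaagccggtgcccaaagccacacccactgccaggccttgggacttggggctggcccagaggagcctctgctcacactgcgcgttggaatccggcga
SLC25A13: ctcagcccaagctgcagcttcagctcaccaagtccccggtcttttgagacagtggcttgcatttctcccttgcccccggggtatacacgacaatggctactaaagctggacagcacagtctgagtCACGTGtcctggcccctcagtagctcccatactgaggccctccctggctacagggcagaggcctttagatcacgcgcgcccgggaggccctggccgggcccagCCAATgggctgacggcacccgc

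Of the 3 tested ATP-Mg/phosphate carriers 2 rose. SLC25A23, SLC25A24 and SLC25A25 are carriers with calcium-binding EF hands on the outer side. When cytosolic calcium rises they exchange ATP-Mg for phosphate, and so set the pool of adenine nucleotides in the matrix. All 3 had positive log2 changes and no overlap between the groups, and SLC25A23 and SLC25A25 passed the test. Over all rows 16.9% had every HFD library above every RD library, and 5.87% were called higher. The fourth of the group, SLC25A41, was not tested, at 6 to 15 counts per library.

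SLC25A25 (chromosome 2, 32414487 to 32451445, minus strand) stood at 95.1, 70.6 and 66.5 CPM in the RD libraries and at 176, 113 and 125 CPM in the HFD libraries. HFD replicate 1 was the highest, and RD replicate 1 was the highest of its group. The gene rose 1.79-fold, with a log2 change of 0.84 ± 0.17 and an edgeR adjusted p of 0.0169. The call was lost without RD replicate 2 (adjusted p = 0.0532) and without HFD replicate 3 (0.0547), and the log2 change was 0.62 or more with any library left out. Of its exonic bases, 4.8% overlap exons of Naif1 on the opposite strand. Whether counting used strand is not given in the sources used here, so these genes may share reads.

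SLC25A23 (chromosome 17, 57043711 to 57059863, minus strand) stood at 64.5, 61.3 and 59.7 CPM in RD and at 75.6, 78.6 and 79.7 CPM in HFD. The groups were tight and apart, with a log2 change of 0.33 ± 0.07 (edgeR adjusted p = 0.0206). The call was made without RD replicate 1 or RD replicate 3 and lost without any of the other 4 libraries (adjusted p from 0.0512 to 0.0962). SLC25A24 had 38.7, 36.9 and 37.2 CPM in RD and 45.3, 46.9 and 44.1 CPM in HFD. It narrowly missed the threshold (log2 change 0.27 ± 0.08, adjusted p = 0.0543) and passed with upper-quartile factors (0.0385) or library size only (0.0252). Summed over the 4 genes, the group gave 33.1 ± 2.70 RPKM in RD and 45.9 ± 3.89 RPKM in HFD (SD, n = 3 each). That is 6.31% ± 0.62 of the summed level of the family in RD and 8.76% ± 0.61 in HFD.

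RefSeq gives SLC25A25 3 start sites. The 250 bases before the most 3′ of them, chr2:32424067-32424316 on the minus strand of GRCm38.p6, are shown because they hold the only full cAMP response element (TGACGTCA) among the called carriers, 150 bases before the start. The second run of capitals is a CCAAT on the other strand. Gene counts cannot tell which start was used.
SLC25A25: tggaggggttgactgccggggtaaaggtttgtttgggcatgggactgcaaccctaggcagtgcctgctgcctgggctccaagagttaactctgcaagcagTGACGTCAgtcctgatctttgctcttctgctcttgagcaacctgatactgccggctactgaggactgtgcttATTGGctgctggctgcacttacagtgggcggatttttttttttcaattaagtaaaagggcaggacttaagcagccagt

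The promoter windows searched ran from 250 bases before to 50 after each start, on both strands, and 35 of the 46 genes had one or more (45 windows). TGACGTCA, which reads the same on both strands, was found in windows of SLC25A25 and SLC25A36, and in 1.79% of all 32851 windows. CCAAT, the site of nuclear factor Y, was found in 22 of the 45 windows and in 37.4% of all. Counted by gene, 19 of the 35 had it in any window, and some genes have several windows. Of the 7 called genes 5 had it, SLC25A12 and SLC25A20 being the exceptions. The E-box CACGTG was in 8 of the 45 windows, from 7 of the genes, and in 7.15% of all windows. The nuclear respiratory factor 1 motif was in windows of SLC25A3 and SLC25A31 (4.6% of all windows). No window of the family held CAAGGTCA, bound by oestrogen-related receptors (1.56% of all), TGATGCAA, bound by ATF4 (0.895%), the heat shock core GAANNTTC (7.86%) or the direct repeat bound by PPARs (0.0396%). In the windows printed here no match overlaps another. These are matches of letters and do not show binding.

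The acylcarnitine carrier rose. SLC25A20 brings long-chain acylcarnitines into the matrix for beta-oxidation, between the carnitine palmitoyltransferases of the outer and inner membranes. The gene (chromosome 9, 108662088 to 108684641, plus strand) stood at 17.4, 18 and 20.1 CPM in RD and at 26.6, 27.9 and 27.1 CPM in HFD. Every HFD library was above every RD library, and the spread within HFD was small. It rose 1.47-fold, a log2 change of 0.56 ± 0.10, with the smallest adjusted p among the tested SLC25A genes (edgeR, 0.0105). The call was lost without HFD replicate 2 (0.0556) or HFD replicate 3 (0.0547).

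Of 6 other genes of the carnitine system, 2 rose and 4 did not pass, beside 5.87% of all rows called higher. CPT1A, the outer membrane transferase of liver and many other tissues, averaged 176 ± 20.6 CPM over the RD libraries and 220.4 ± 11.4 CPM over the HFD libraries (SD, n = 3 each), with a log2 change of 0.32 ± 0.09 (edgeR adjusted p = 0.0461). CPT1C, the form of neurons, averaged 60.1 ± 3.65 CPM over the RD libraries and 79.0 ± 2.76 CPM over the HFD libraries, with a log2 change of 0.39 ± 0.08 (edgeR adjusted p = 0.0138). Leaving out RD replicate 2 kept the call of CPT1A, leaving out any other library ended it (adjusted p up to 0.142), and so did DESeq2 size factors. CPT1C lost its call without HFD replicate 1 or HFD replicate 3 (up to 0.0698). The median log2 change of the 6 was 0.237. CPT2, the transferase on the matrix side, had -0.13 ± 0.12, and the plasma membrane carnitine transporter gene SLC22A5 had 0.26 ± 0.10.

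SLC25A34 showed the largest change of the family, from a low level. What it carries is little known. The gene (chromosome 4, 141618824 to 141623821, minus strand) stood at 2.88, 2.54 and 1.1 CPM in RD and at 6.31, 5.57 and 5.88 CPM in HFD, from 19 to 47 counts and 82 to 91 counts. The groups were far apart, and RD replicate 3 was the lowest. It rose 2.74-fold, a log2 change of 1.45 ± 0.31 (edgeR adjusted p = 0.0194). The call was lost without HFD replicate 1 (0.0622), HFD replicate 2 (0.0653) or HFD replicate 3 (0.0789), and the log2 change was 1.12 to 1.71 with a library left out.

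Among the other little characterised carriers, SLC25A53 (X chromosome, 136981116 to 137038302, minus strand) had 15.3, 12.6 and 11.2 CPM in RD and 17.1, 18.1 and 19.9 CPM in HFD. The groups did not overlap, but the log2 change of 0.50 ± 0.14 missed the threshold (adjusted p = 0.0561). It passed without RD replicate 1 (0.0279), by DESeq2 (0.0353) and with library size only (0.0424). SLC25A48 had a log2 change of -0.42 ± 0.61, with 4 to 23 counts per library. Its levels were 1.41, 1.17 and 0.462 CPM in RD and 0.278, 0.543 and 1.42 CPM in HFD (adjusted p = 0.705). SLC25A35, SLC25A43, SLC25A45 and SLC25A47 had log2 changes between -0.29 and 0.29 and were not called. For SLC25A35, 31.3% of its exonic bases overlap Rangrf on the opposite strand.

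**Figure D3:**
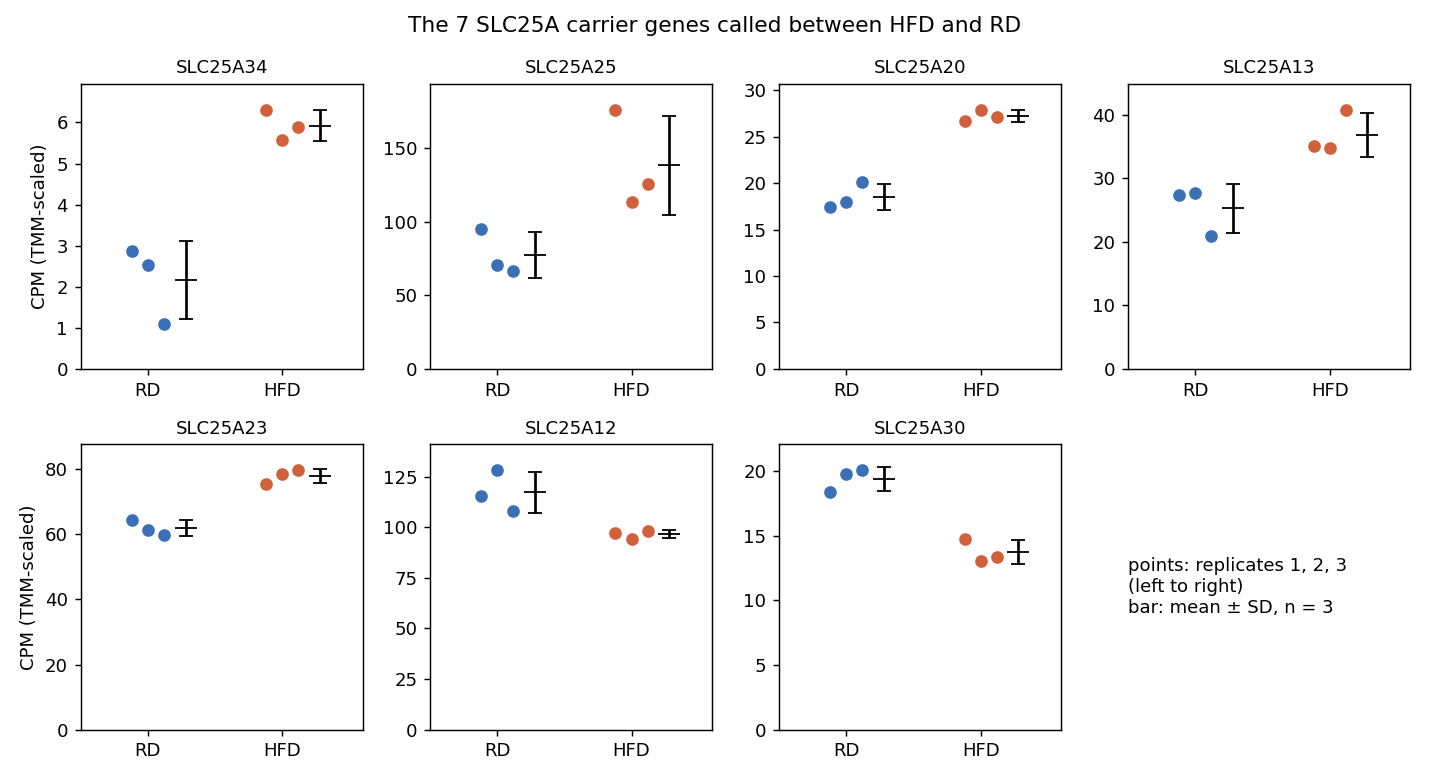
CPM of the 7 called SLC25A genes in each library (points, replicates 1 to 3 from left to right) with mean and SD, each axis starting at 0. In none of the 7 panels do the RD and HFD points overlap. The 7 were picked by the test on these same values, and 32.5% of all tested rows do not overlap.

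In the uncoupling-protein branch SLC25A30 fell. This carrier, also called KMCP1, was first described in kidney. The gene (chromosome 14, 75760117 to 75787037, minus strand) stood at 18.4, 19.8 and 20.1 CPM in RD and at 14.8, 13 and 13.4 CPM in HFD. All HFD libraries were below all RD libraries, with a log2 change of -0.50 ± 0.12 (edgeR adjusted p = 0.0248). Its call was lost when RD replicate 2 (0.0698), HFD replicate 2 (0.104) or else HFD replicate 3 (0.107) was left out. SLC25A14 (UCP5), a close relative, had 29.7, 26.8 and 29.1 CPM in RD and 20.8, 23.2 and 23.3 CPM in HFD, again without overlap. Its log2 change of -0.35 ± 0.10 missed the threshold (adjusted p = 0.0577). SLC25A27, the most abundant of the branch, had 134, 135 and 102 CPM in RD and 131, 128 and 118 CPM in HFD. RD replicate 3 was the lowest library, the groups overlapped, and the log2 change was 0.03 ± 0.11 (adjusted p = 0.894).

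The uncoupling proteins themselves and the MTCH genes belong to the family but do not bear its prefix. UCP2, known for its role in the redox state and fuel choice of endocrine cells, stood at 360.0, 366 and 339 CPM in RD and at 464, 439.8 and 463 CPM in HFD. It rose 1.28-fold (log2 change 0.36 ± 0.06, edgeR adjusted p = 0.00647), and the call held with any of the 6 libraries left out. UCP3 averaged 0.906 ± 0.231 CPM over the RD libraries and 1.75 ± 0.506 CPM over the HFD libraries, without overlap, and missed the threshold (adjusted p = 0.134). UCP1 had 0 counts in 5 libraries and 2 counts in HFD replicate 2. The outer membrane proteins MTCH1 (-0.14 ± 0.07) and MTCH2 (-0.06 ± 0.08) were not called, nor was SLC25A46 (-0.15 ± 0.08), which acts at the outer membrane in the shaping of mitochondria. In all, 1 of the 4 tested genes of this list was called, higher, beside 5.87% of all rows called higher.

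The most abundant carriers with the SLC25A prefix did not pass the test. SLC25A4 had 118, 118 and 121 CPM in RD and 120.3, 140.2 and 133 CPM in HFD (log2 change 0.14 ± 0.07, adjusted p = 0.257). SLC25A5 (X chromosome, 36795651 to 36798807, plus strand) had 73.7, 75.7 and 85.4 CPM in RD and 61.1, 67.5 and 63.9 CPM in HFD. The groups of SLC25A5 did not overlap, its log2 change was -0.29 ± 0.08 (edgeR adjusted p = 0.0591), and it passed by DESeq2 (0.0345). These carriers are near-relatives, and the treatment of reads that fit more than 1 gene is not given in the sources used here. SLC25A5 made up 48.4% ± 1.53 of the summed RPKM of both in the RD libraries and 41.2% ± 0.74 in the HFD libraries (SD, n = 3 each), and no HFD library reached the share of any RD library. SLC25A3 had 263, 261 and 367 CPM in RD and 264, 259.5 and 249.7 CPM in HFD. RD replicate 3 stood above the other 5 libraries, and the log2 change of -0.20 ± 0.12 (adjusted p = 0.315) became -0.03 without it.

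**Figure D4:**
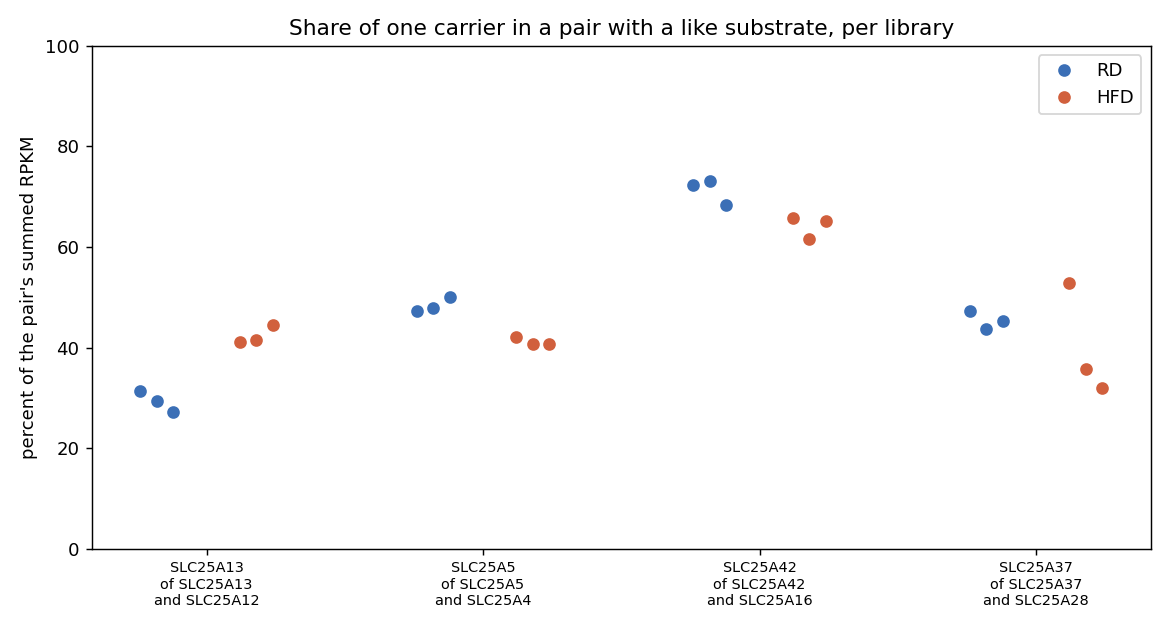
Share of the first carrier in the summed RPKM of a pair with a like substrate, one point per library (RD blue, HFD orange). Among the pairs drawn, the shares of SLC25A13 (27.2% to 31.4% in RD, 41.1% to 44.6% in HFD), SLC25A5 and SLC25A42 do not overlap between groups. That of SLC25A37 overlaps. Those of SLC25A33 with SLC25A36, SLC25A39 with SLC25A40 and SLC25A18 with SLC25A22, also computed but not drawn, overlap too. For SLC25A13 and SLC25A42 the separation follows from both genes of the pair separating in opposite directions.

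Of the other abundant carriers, SLC25A39 had 81.1, 70.3 and 76.7 CPM in RD and 72.2, 70.3 and 74.6 CPM in HFD, and its partner in glutathione transport SLC25A40 averaged 1.63 RPKM. SLC25A51 had 131, 125 and 142 CPM in RD and 132, 126 and 121 CPM in HFD. SLC25A44 had 52, 57.6 and 69.9 CPM in RD and 62.4, 59.6 and 62.7 CPM in HFD. The groups overlapped in these 3 abundant genes, and their log2 changes were -0.07 ± 0.08, -0.07 ± 0.07 and 0.04 ± 0.11. SLC25A11 had 51.5, 54.5 and 49.9 CPM in RD and 55.7, 61.9 and 58.3 CPM in HFD. Its groups were apart, but the log2 change of 0.17 ± 0.08 did not pass (adjusted p = 0.202).

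Of the 3 tested carriers of di- and tricarboxylates, 0 were called by edgeR, DESeq2 or limma-voom, with 1 at an unadjusted p under 0.05 by edgeR. Their log2 changes were all positive, from 0.07 to 0.24. Beside these carriers and the cofactor and amino acid groups that follow, edgeR called 10.5% of all 13873 rows. An unadjusted p under 0.05 was found for 3679 of those rows. SLC25A1, which exports citrate for fatty acid synthesis, had 26.2, 31.2 and 30.1 CPM in RD and 34.0, 31.6 and 38.1 CPM in HFD, and SLC25A10, the dicarboxylate carrier, had 0.07 ± 0.12. Of the 9 tested carriers of cofactors edgeR called 0, as did DESeq2 and limma-voom, with 2 at an unadjusted p under 0.05. The coenzyme A carriers had opposite signs. SLC25A42 averaged 63.8 ± 4.73 CPM over the RD libraries and 53.7 ± 4.82 CPM over the HFD libraries, and SLC25A16 averaged 20.5 ± 1.04 CPM over the RD libraries and 23.9 ± 0.945 CPM over the HFD libraries, both without overlap. SLC25A42 was called, lower, without RD replicate 3 (edgeR adjusted p = 0.0496). SLC25A26, the carrier of S-adenosylmethionine, had a log2 change of 0.20 ± 0.19, and SLC25A32, which carries folate and flavin, 0.03 ± 0.12. SLC25A17, which sits in peroxisomes rather than mitochondria, had 0.10 ± 0.10, and the groups of these 3 genes overlapped. Of 5 carriers of other amino acids 0 passed by edgeR, DESeq2 or limma-voom, with 1 at an unadjusted p under 0.05. SLC25A38, which brings in glycine for haem synthesis, averaged 26.8 ± 2.06 CPM over the RD libraries and 21.2 ± 2.85 CPM over the HFD libraries (adjusted p = 0.115). The ornithine carriers SLC25A15 and SLC25A2 had log2 changes of -0.02 ± 0.16 and -0.07 ± 0.37, and SLC25A29, a carrier of basic amino acids, -0.21 ± 0.17.

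Of the 2 iron carriers 0 were called by edgeR, DESeq2 or limma-voom, with 0 at an unadjusted p under 0.05. By edgeR 10.5% of all 13873 rows were called, and 3679 had an unadjusted p under 0.05. SLC25A37 (mitoferrin-1), the importer of red cell precursors, had 63.3, 54.7 and 71.1 CPM in RD and 78.5, 37.7 and 37.3 CPM in HFD. HFD replicate 1 was the highest library of all, and the other HFD libraries were the lowest. Without HFD replicate 1 the gene was called lower by edgeR (log2 change -0.75, adjusted p = 0.0165). ALAS2, the haem synthesis enzyme of red cells, had 93.3, 60.2 and 67.4 CPM in RD and 110.2, 50 and 56.4 CPM in HFD, and its highest library was HFD replicate 1 too. The part of red cell RNA in the level of SLC25A37 was not tested. SLC25A28 (mitoferrin-2), the form of other tissues, had 43.9, 43.9 and 53.7 CPM in RD and 43.6, 42.2 and 49.6 CPM in HFD. Of 12 genes of haem and iron-sulphur cluster synthesis edgeR called 0, with 2 at an unadjusted p under 0.05, and DESeq2 and limma-voom called 0 (median log2 change 0.001). The pyrimidine nucleotide carriers SLC25A33 (-0.21 ± 0.19) and SLC25A36 (0.15 ± 0.06) were not called either. Of the exonic bases of SLC25A33, 14.9% overlap Gm13068, and of those of SLC25A11, 8.9% overlap Rnf167.

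Of 13 listed genes for the import of carrier proteins 11 were tested, and TIMM8A and TIMM29 were not analysed here. Of the 11, 1 was called (9.1%), beside 10.5% of all rows. The median log2 change of the 11 was -0.122. TOMM20, a receptor of the outer membrane, rose from 66.5, 61.8 and 62.8 CPM in RD to 77.4, 82.5 and 83.1 CPM in HFD (log2 change 0.35 ± 0.07, edgeR adjusted p = 0.0185). Leaving out RD replicate 2, HFD replicate 2 or HFD replicate 3 ended its call (adjusted p up to 0.0898). TOMM70, the receptor that binds carrier precursors, had -0.13 ± 0.09, and TIMM22, the channel that inserts them, 0.09 ± 0.18. Of 22 other mitochondrial transporters and channels edgeR and limma-voom called 0, and DESeq2 called 1 higher and 1 lower. By edgeR 5 had an unadjusted p under 0.05 (median log2 change -0.038). Among all 13873 rows edgeR called 10.5%, and 3679 had an unadjusted p under 0.05. The sideroflexin SFXN5 had a log2 change of 0.46 ± 0.14 (adjusted p = 0.0625). The pyruvate carrier subunits MPC1 and MPC2 had -0.10 ± 0.13 and -0.26 ± 0.11.

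Of 10 genes of mitochondrial biogenesis edgeR and limma-voom called 0, and DESeq2 called 1 lower. By edgeR 3 had an unadjusted p under 0.05 (median log2 change -0.109). Among all 13873 rows edgeR called 10.5%, and 3679 had an unadjusted p under 0.05. PPARGC1A, a coactivator of mitochondrial genes, had 0.43 ± 0.19 and CS, the citrate synthase often used as a measure of mitochondrial mass, -0.15 ± 0.07. The 12 listed genes of the mitochondrial genome took 0.754% to 0.819% of raw counts in RD and 0.907% to 0.976% in HFD. The SLC25A rows took 0.200% to 0.204% in RD and 0.211% to 0.222% in HFD. These are shares of raw totals, in which the summed hormone genes weigh more in RD. What part that has in either difference was not tested. After TMM scaling the summed RPKM of the carriers overlapped between the groups, as given above. No such sum was made for the mitochondrial genome.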

How the data were processed

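Raw counts of reads per gene symbol, as whole numbers, were deposited by the authors for 6 libraries. Per the labels' protocols, polyadenylated RNA was purified with oligo-dT. Per the submitters' processing notes the build was mm10. Which aligner, counter and annotation were used is not given in the sources used here.

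All 16736 rows were fitted with edgeR 4.0.16 in R 4.3.3 (TMM, minimum count 10, minimum total 15, quasi-likelihood test of HFD against RD, two-sided, Benjamini-Hochberg over the 13873 rows that passed, threshold 0.05). The SE is the log2 change over the square root of F. Exon lengths, positions and overlaps are those of GENCODE M21 (mm10), matched by symbol for all 46 genes. Promoters are from RefSeq (GRCm38.p6). Between 64.0% and 67.0% of counts from 1 to 10 were even, so both mates of a pair may have been counted; no counting intervals are given, and halved counts were tried. Depth limits the precision of genes with few counts. On simulated data for this comparison (13776 genes, 200 of them changed), 64% of 1.5-fold (n = 25), 92% of 2-fold (n = 50) and 20% of 1.25-fold (n = 25) changes were called. The 1.5-fold and 1.25-fold rates cover only genes raised in HFD, not those lowered by as much. The changed genes were drawn only from those above a set level in CPM, so these rates do not cover genes with few counts. Fewer genes were changed than the 1453 rows called in the data, so the adjustment of p differs too. Alternatives included DESeq2 1.42.0 and limma-voom (limma 3.58.1).

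The members, gene lists and motifs were chosen with earlier results of these data known; the motifs were chosen after the member values were seen. Values per library are given for called members, the 8 highest by RPKM and the 6 largest changes; other members named with values per library were chosen after their values were seen. The values of 1 member and 1 listed transporter are not reported here.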

Additional observations from a re-analysis of the deposited data

How the results depend on the processing

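The main counts were 5 carriers called higher and 2 lower. With library size as the only scaling they were 8 and 1, and with the replicate block 3 and 0. At an adjusted p of 0.01 they were 0 and 0, and at 0.10 7 and 5. By edgeR's main fit 16 had an unadjusted p under 0.05, as did 3679 of all 13873 rows. Upper-quartile factors gave 6 and 1, limma-voom 5 and 1, and the DESeq2 test 6 and 3. With 1 library left out, 0 to 6 were called higher and 0 to 3 lower. SLC25A27 then ranged from -0.097 to 0.092 (log2 change) and SLC25A44 from -0.059 to 0.163, and both signs occurred. The replicate numbers share no stated origin. Deviations from the group means correlated at -0.127, 0.004 and -0.097 for same-numbered libraries, and at -0.025 to 0.121 for the others. Centring within groups of 3 ties these values together, so they cannot decide whether the numbers pair the samples. The block left 808 of all rows called, against 1453, and among companion genes it ended the calls of TOMM20 and CPT1A. DESeq2 size factors, no filter and halved counts gave 5 and 2. The median of all rows moved to 0.065 with library size only, and that of the family from -0.015 to 0.052; the signs of SLC25A15, SLC25A28, SLC25A35 and SLC25A40, all near 0, changed with it. The causes were not tested.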
